A study of Mus musculus with 22 samples.

Results

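The 10 genes described here encode proteins with which astrocytes make, lipidate, process and take up lipoprotein particles, or sense the sterols inside the cell. They were taken by gene symbol from a table of 29367 genes: Apoe, Clu, Apod, Abca1, Abcg1, Lpl, Lcat, Lrp1, Vldlr and Nr1h2. Each was found 1 time in the table, and all 10 passed the filter on low counts in every comparison. They were read in 22 RNA-seq libraries of ribosome-bound mRNA from the mouse optic nerve head (ONH), the unmyelinated part of the nerve behind the eye, and from the optic nerve proper (ONP), the myelinated part just beyond it. Tissue was taken 7 or 30 days after an injection of microbeads into the eye, a model in which beads obstruct outflow and raise the intraocular pressure. There were 4 libraries of the ONH and 4 of the ONP at 7 days, and 7 of each region at 30 days. The tissue of 4 mice (2 male and 2 female) was combined for each library.

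All groups shared the same genotype and the same injury. The mice were aged 3 to 4 months, carried the ribotag allele in the homozygous state (Rpl22 HA/HA, from the strain B6J.129(Cg)-Rpl22tm1.1Psam/SjJ) and the Cre transgene of 73.12Mvs/J, a B6.Cg-Tg (GFAP-Cre) strain, and were entered as WT in the sample labels. The Cre is driven constitutively by a mouse Gfap promoter sequence, so the tag marks ribosomes of cells in which that promoter is or was active. Uninjected mice were not analysed here, so 7 and 30 days can be compared with each other but not with the uninjured nerve. The 4 comparisons are 30 against 7 days within each region and ONH against ONP at each day, and an interaction contrast asks whether the 30 against 7 day change differs between the regions.

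Lipoproteins of the central nervous system are small, cholesterol-rich particles that glia assemble locally, because plasma lipoproteins hardly cross the blood-brain barrier. In this cycle apolipoprotein E is the main protein of the particle, the transporters ABCA1 and ABCG1 load it with phospholipid and cholesterol, LCAT esterifies its cholesterol, and a family of lipoprotein receptors binds and internalises it. Liver X receptors sense oxysterols and are known to activate Apoe, Abca1, Abcg1 and Lpl, and APOE is a major carrier of sterol from astrocytes to neurons and to cells that form myelin.

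Libraries held 16292489 to 33307092 counts, and no pair within a group was alike enough to be a duplicate. The summed level of 10 astrocyte markers ranged from 14954 to 35632 CPM (counts per 1000000, scaled by TMM over the 22 libraries) and overlapped between all 4 groups, with medians of 19053 and 20819 CPM in the ONH and 21357 and 30004 CPM in the ONP at 7 and 30 days. Markers of other cells were not at 0 and differed with the comparisons. The sum over 10 oligodendrocyte markers was 18487 to 35587 CPM in the ONH and 81549 to 106875 CPM in the ONP at 7 days, and 13440 to 41098 CPM and 25561 to 83751 CPM at 30 days. In edgeR's quasi-likelihood test with Benjamini-Hochberg adjustment over all genes, 10 of these 10 were lower in the ONH than in the ONP at 7 days and 8 of 10 at 30 days, and 8 of 10 fell in the ONP from 7 to 30 days. In the same test 3 of the 10 astrocyte markers were lower in the ONH at 7 days, 1 was higher and 4 were lower there at 30 days, and 1 rose in the ONP over time. Of 5 oligodendrocyte precursor markers, 2 were lower in the ONH at 7 days and 4 at 30 days. In the ONP over time 3 of 6 endothelial and 2 of 4 mural markers tested fell. All 4 pigment cell and all 4 photoreceptor markers were higher in the ONH at both days. In bulk samples, fewer cells of a type and less RNA per cell cannot be told apart, and the part of other cells in the results on the 10 genes was not tested.

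The 3 apolipoproteins were among the most abundant messages of these libraries, and the other members spanned a wide range below them. By CPM per kilobase of exon length, averaged over the 4 groups, Apoe ranked first of the 29322 genes with a known length, at 13866 CPM per kb. Clu ranked 11th at 1744 CPM per kb and Apod 30th at 854 CPM per kb. On the same scale Lcat ranked 310th at 137 CPM per kb, and Nr1h2 stood at 24.6, Abcg1 at 14.5, Lrp1 at 11.4 and Vldlr at 8.63 CPM per kb. The lowest members were Abca1 at 3.02 and Lpl at 2.06 CPM per kb, of which the latter carried as few as 33 counts in a single library.

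**Figure D1:**
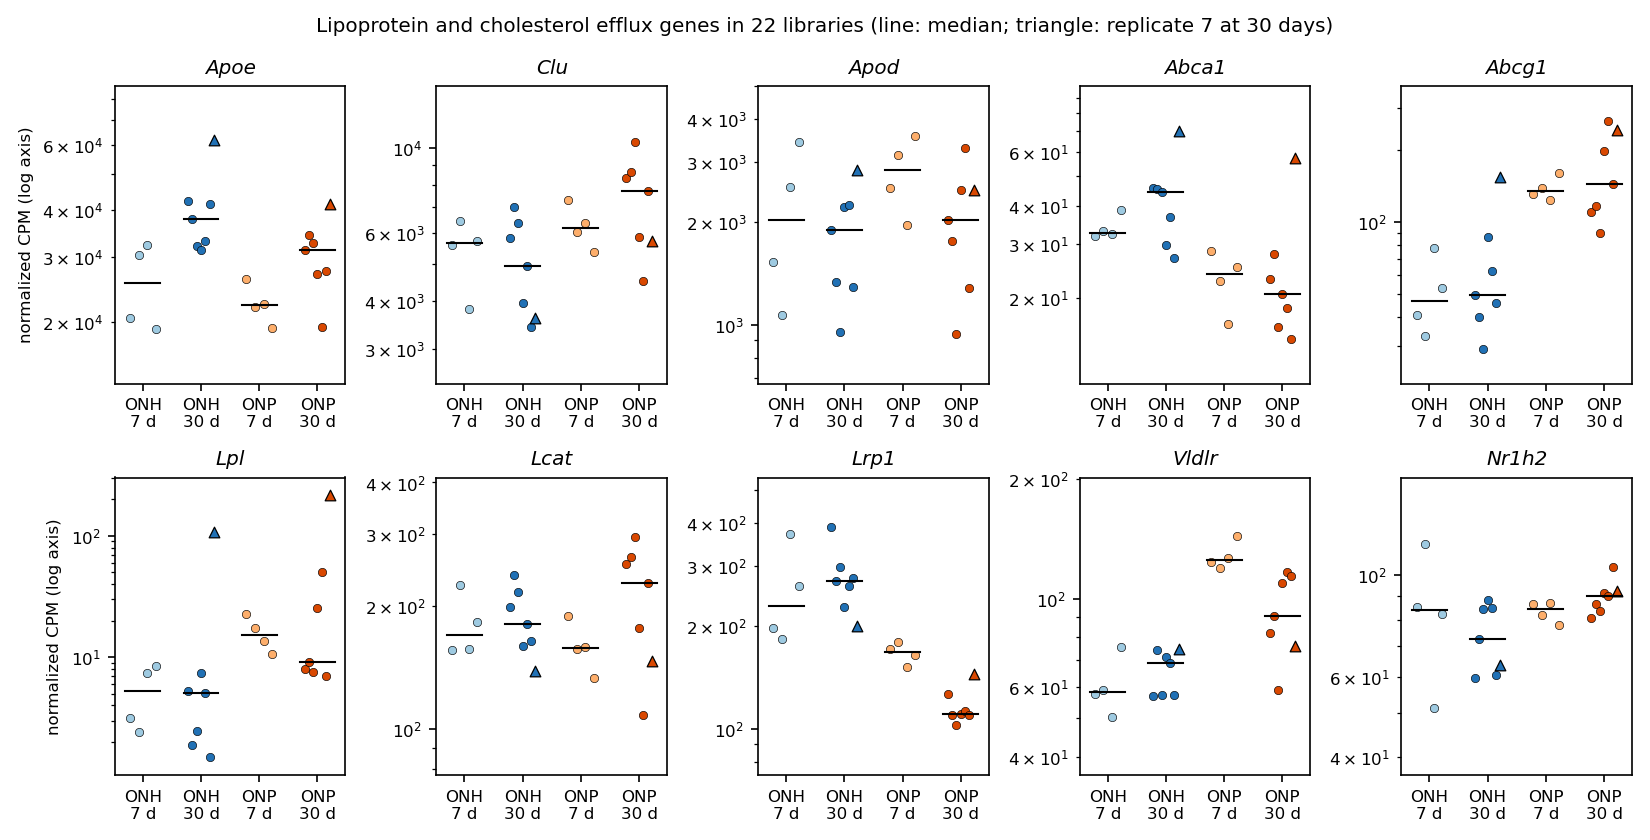
Normalized CPM (log axis, a separate scale in each panel) of the 10 genes in each of the 22 libraries, by region and day. Points are libraries, lines are group medians and triangles are replicate 7 at 30 days. Lrp1 and Abca1 lie higher in the ONH, Abcg1, Vldlr and Lpl lie higher in the ONP, and replicate 7 stands at 108 and 217 CPM for Lpl.

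Of the apolipoproteins, Apoe (ENSMUSG00000002985, chr7:19696109-19699188, minus strand, GRCm38) encodes the principal lipid carrier secreted by astrocytes. In the ONH it was counted at 20489, 30387, 32331 and 19146 CPM at 7 days, and at 30 days the lowest, median and highest of 7 libraries were 31301, 37827 and 61758 CPM. The ranges overlapped, with 5 of the 7 later libraries above all 4 earlier ones. The early mean was 25588 ± 6733 CPM (SD, n = 4) and the late mean was 39993 ± 10590 CPM (SD, n = 7), and the log2 fold change of 0.62 (SE 0.22) did not pass the test (edgeR adjusted p = 0.252, unadjusted p = 0.0134). In the ONP the 4 early libraries held 26173, 21953, 22454 and 19265 CPM, against a lowest, median and highest of 19365, 31316 and 41489 CPM at 30 days. There 6 of 7 later libraries lay above all of the earlier ones, and the log2 fold change of 0.41 (SE 0.19) also missed the threshold (edgeR adjusted p = 0.150). Without replicate 5 of the ONP at 30 days, the library at 19365 CPM, it was 0.53 and passed (edgeR adjusted p = 0.0257).

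Between the regions the ranges of Apoe overlapped at 30 days. The log2 difference was 0.39 (SE 0.18) with an edgeR adjusted p of 0.102. Without replicate 7 of the ONP it was 0.47 and passed (edgeR adjusted p = 0.0495). That fit leaves out the highest ONP library, at 41489 CPM, and keeps the highest ONH library, replicate 7 at 61758 CPM. At 7 days it was 0.21 (SE 0.20, edgeR adjusted p = 0.536), and the 4 ONH libraries spread on both sides of those of the ONP.

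Clu (ENSMUSG00000022037, chr14:65968483-65981547, plus strand), which encodes clusterin, also called apolipoprotein J, was lower in the ONH than in the ONP at 30 days. Its lowest, median and highest values were 3421, 4939 and 7016 CPM in the ONH and 4503, 7733 and 10312 CPM in the ONP. The ranges overlapped. The fitted log2 difference was -0.55 (SE 0.21, edgeR adjusted p = 0.0477), and this call was lost when any of 8 single libraries was left out (replicates 4, 5, 6 and 7 of the ONH and 1, 2, 3 and 6 of the ONP), with values between -0.65 and -0.44 over all 14 removals. At 7 days Clu stood at 5587, 6454, 3814 and 5707 CPM in the ONH and 7320, 6022, 6361 and 5364 CPM in the ONP, with a log2 difference of -0.20 (SE 0.19, edgeR adjusted p = 0.527). Clu did not pass the test for 30 against 7 days in the ONH (-0.13, SE 0.22, edgeR adjusted p = 0.823) or the ONP (0.19, SE 0.21, edgeR adjusted p = 0.561).

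Apod (ENSMUSG00000022548, chr16:31296192-31314808, minus strand), a lipocalin found on lipoprotein particles, passed no test. Its spread within groups was wide, with coefficients of variation of 25.2% to 49.3%, and its values ran from 942 to 3573 CPM. The largest of its differences was the 30 against 7 day change in the ONP, at -0.49 on the log2 scale (SE 0.29, edgeR adjusted p = 0.266).

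The transporters that load lipoproteins differed between the regions in opposite directions at 30 days, but not with equal support. Abcg1 was higher in the ONP at both days. Abca1 passed as higher in the ONH at 30 days only, and that call was lost in most fits with a library left out. At 30 days 6 of the 10 genes passed the ONH against ONP test, 2 higher and 4 lower in the ONH, where 41.8% of the 15133 genes tested passed, 21.8% higher and 20% lower. At 7 days 3 of 10 passed, all lower in the ONH, where 13.2% of 14752 genes passed, 6.34% higher and 6.81% lower. These were 936 higher and 1004 lower genes, and 1392 and 840 with scaling by total counts only.

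Abca1 (ENSMUSG00000015243, chr4:53030787-53159895, minus strand) encodes the transporter that moves phospholipid and cholesterol onto lipid-poor apolipoproteins. At 30 days its lowest, median and highest values were 27.1, 44.2 and 70.2 CPM in the ONH and 14.7, 20.6 and 57.1 CPM in the ONP. The groups overlapped through replicates 2 and 7 of the ONP. The log2 difference was 0.76 (SE 0.29, edgeR adjusted p = 0.0464). The call was lost when any of 11 single libraries was left out (replicates 1, 2, 3, 5 and 7 of the ONH and 1 to 6 of the ONP), with values between 0.57 and 1.08 over all 14 removals. Without replicate 7 in both regions, a fit chosen after the data were seen, the log2 difference was 0.90 and passed (edgeR adjusted p = 0.00169). That fit leaves out the highest library of each region, at 70.2 and 57.1 CPM. At 7 days Abca1 was counted at 31.8, 33.0, 32.2 and 38.8 CPM in the ONH and at 28.5, 22.7, 16.4 and 25.3 CPM in the ONP. The groups did not overlap at 7 days, as for 21.7% of all genes tested there, and the log2 difference of 0.57 (SE 0.21) did not pass (edgeR adjusted p = 0.103). It passed when libraries were scaled by their total counts only (0.69), a scaling that moved the median of all genes from 0.07 to 0.18 on the log2 scale.

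The bases before the annotated starts of Abca1 and Lrp1 are shown because these were the members higher in the ONH at 30 days. Each run holds the 250 bases before the start, 5′ to 3′ on the gene's strand (GRCm38, RefSeq window), at chr4:53159896-53160145 for Abca1 and chr10:127621149-127621398 for Lrp1. Capitals mark matches to the E-box CACGTG, the GC box GGGCGG, the TATA box TATAAA and the half-sites GGTTA and CGGTCA with 4 bases between them, an arrangement known from elements that liver X receptors bind. Each was searched on both strands.
Abca1: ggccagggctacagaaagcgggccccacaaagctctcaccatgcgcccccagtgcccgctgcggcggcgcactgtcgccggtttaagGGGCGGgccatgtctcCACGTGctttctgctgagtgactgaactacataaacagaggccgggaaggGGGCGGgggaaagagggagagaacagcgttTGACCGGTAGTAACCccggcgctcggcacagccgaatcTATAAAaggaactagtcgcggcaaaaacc
Lrp1: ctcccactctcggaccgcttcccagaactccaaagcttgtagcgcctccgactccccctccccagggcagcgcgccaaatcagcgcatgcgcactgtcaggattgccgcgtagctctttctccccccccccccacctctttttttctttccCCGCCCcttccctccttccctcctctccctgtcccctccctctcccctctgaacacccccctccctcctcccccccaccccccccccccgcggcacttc

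In Abca1 the pair of half-sites lay 67 to 53 bases before the start on the reverse strand, the E-box 147 to 142 bases before it and the TATA box 29 to 24 bases before it. GC boxes lay 163 to 158 and 97 to 92 bases before it. Lrp1 held a GC box on the reverse strand, 99 to 94 bases before its start, and no other of these patterns. Of 32851 promoter windows in the RefSeq table, 4 held the pair of half-sites (0.0122%), 6.02% held the E-box, 32.7% the GC box and 12.4% the TATA box. The patterns were chosen after the Abca1 sequence had been read, so that a match is a description only, and 7 of the 10 genes had a window in the table.

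Abcg1 (ENSMUSG00000024030, chr17:31057675-31117988, plus strand) encodes the transporter that adds cholesterol to particles already carrying lipid. At 7 days it was counted at 40.6, 33.1, 77.2 and 52.8 CPM in the ONH and at 130.5, 138.6, 123.5 and 160.6 CPM in the ONP. All 4 ONH libraries lay below all 4 of the ONP, and 21.7% of genes tested there did not overlap in either direction. The log2 difference was -1.43 (SE 0.25, edgeR adjusted p = 0.00417). At 30 days the lowest, median and highest values were 29.4, 49.3 and 153.7 CPM in the ONH and 90.1, 144 and 265 CPM in the ONP, and the ranges overlapped. The log2 difference of -1.32 (SE 0.35, edgeR adjusted p = 0.00649) was past the threshold in every fit with a library left out, between -1.71 and -1.18. Oligodendrocyte markers were lower in the ONH in the same comparisons, as given above, and their part in the difference was not tested.

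Lpl (ENSMUSG00000015568, chr8:68880491-68907448, plus strand) encodes lipoprotein lipase, which hydrolyses the triglycerides of lipoproteins and in the nervous system is made by microglia and macrophages as well as by other cells. It was the most variable of the 10 genes. At 7 days it stood at 3.12, 2.42, 7.35 and 8.47 CPM in the ONH and 22.5, 17.2, 13.5 and 10.5 CPM in the ONP. The groups did not overlap, as for 21.7% of genes tested there. The fit gave a log2 difference of -1.57 (SE 0.44, edgeR adjusted p = 0.0421), and the call was lost in 6 of the 8 fits with a library left out (libraries 1 and 3 of the ONH and each of the ONP), with values between -1.89 and -1.33. It was also lost with all 4 groups in a single fit (-1.58, edgeR adjusted p = 0.390).

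At 30 days Lpl was counted at 5.26, 1.90, 2.46, 7.35, 5.09, 1.49 and 108 CPM in replicates 1 to 7 of the ONH and at 8.05, 9.04, 7.48, 25.5, 50.1, 6.93 and 217 CPM in those of the ONP. In both regions replicate 7 was far above the other 6. The log2 difference was -1.27 (SE 1.06) and did not pass (edgeR adjusted p = 0.357). Without replicate 7 in both regions, a fit chosen after the data were seen, it was -2.21 and passed (edgeR adjusted p = 0.00701). Leaving it out of the ONH only gave -3.58, and out of the ONP only 0.093. The 30 against 7 day changes of Lpl, 1.80 in the ONH (SE 1.16, edgeR adjusted p = 0.496) and 1.50 in the ONP (SE 0.96, edgeR adjusted p = 0.303), rested on replicate 7. They were -0.47 and 0.14 on the log2 scale without that library, and in the ONH DESeq2 gave -0.44 after it had replaced the 2007 counts of that library by 86.

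Replicate 7 at 30 days also stood apart for genes of microglia and macrophages. The summed level of 10 of their markers was 6183 CPM there in the ONH, against 321 to 2122 CPM in the other 6 replicates, and 6696 CPM in the ONP, against 400 to 5244 CPM. Replicate 5 of the ONP, second for Lpl at 50.1 CPM, was second in that sum as well. In a list of 11 genes of activated microglia, chosen after their values had been seen, the sum was 2186 CPM against 131 to 374 CPM in the ONH and 3248 CPM against 215 to 601 CPM in the ONP. That list held Apoc1, Apoc2, Apoc4 and Ch25h, genes of the lipoprotein pathway that are given singly further below. Spp1, which encodes osteopontin, reached 1218 CPM in the ONH and 1760 CPM in the ONP, 29.8 and 64.1 times the median of the other replicates. Gpnmb, of the same list, was at 2.30 and 3.28 times that median, where Lpl was at 28.7 and 25.3 times. Of the genes of homeostatic microglia, P2ry12 was at 1.06 and 2.05 times and Tmem119 at 2.89 and 4.57 times. Replicate 7 was not the highest library for either of these genes in either region. In the ONP it held 33.1 CPM of P2ry12 and 142 CPM of Tmem119, against a highest of 92.3 and 296 CPM in the other replicates. The summed astrocyte markers were at 0.92 times the median of the other replicates in the ONH and 0.71 times in the ONP. The summed oligodendrocyte markers were at 2.23 times in the ONH, above all the other replicates, and at 1.18 times in the ONP. A list of 4 adipocyte genes, also chosen later, summed to 1.73 CPM in the ONH, against 0.10 to 9.41 CPM in the other replicates, and to 1.96 CPM in the ONP, against 0 to 0.086 CPM. Of the other members, Abca1 was at 1.74 and 2.92 times, Abcg1 at 3.24 and 1.86 times and Apoe at 1.74 and 1.41 times. Apod was at 1.76 and 1.31 times, whereas Clu was at 0.67 and 0.71 times and Lcat at 0.73 and 0.61 times. Lrp1 was at 0.73 and 1.32 times, Vldlr at 1.18 and 0.76 times and Nr1h2 at 0.81 and 1.04 times. For Abcg1 in the ONP another replicate was higher, at 265 CPM against 243 CPM in replicate 7. The part of microglia, macrophages or other cells in these levels was not tested.

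**Figure D2:**
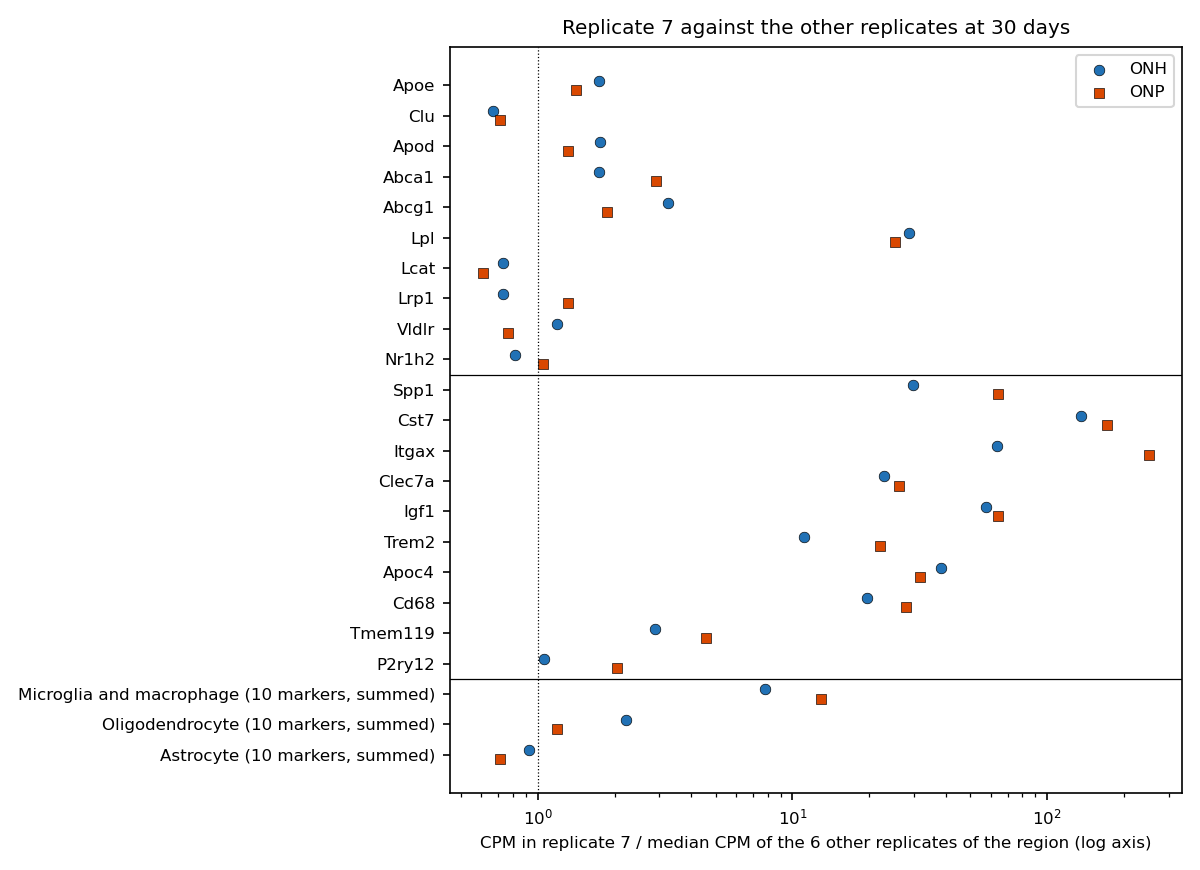
CPM in replicate 7 at 30 days divided by the median of the other 6 replicates of the region (log axis) for the 10 genes, for microglial genes and for the summed markers of 3 cell types, with ONH as circles and ONP as squares. The dotted line marks a ratio of 1. Lpl lies at 28.7 and 25.3, Spp1 at 29.8 and 64.1, Tmem119 at 2.89 and 4.57 and P2ry12 at 1.06 and 2.05.

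Lcat (ENSMUSG00000035237, chr8:105939551-105943382, minus strand), whose enzyme esterifies cholesterol on the particle, passed no test. At 7 days it stood at 180 ± 32.3 CPM in the ONH and 159 ± 22.5 CPM in the ONP (SD, n = 4 each). At 30 days it stood at 185 ± 34.8 CPM and 210 ± 67.9 CPM in these regions (SD, n = 7 each). These levels overlapped between all 4 groups. The log2 change in the ONH was 0.02 with a 95% interval from -0.35 to 0.39.

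The receptors Lrp1 and Vldlr, both of the same lipoprotein receptor family, differed between the regions in opposite directions, and Lrp1 was the only member that passed a test for 30 against 7 days. Lrp1 (ENSMUSG00000040249, chr10:127538161-127621148, minus strand) encodes a large endocytic receptor for APOE-containing particles and many other ligands. In the ONP it was counted at 172, 179, 151 and 164 CPM at 7 days, and its lowest, median and highest values at 30 days were 103, 110 and 145 CPM. All 7 later libraries lay below all 4 earlier ones, and 12% of genes tested there did not overlap in either direction. Lrp1 fell by 0.55 on the log2 scale (SE 0.10, edgeR adjusted p = 0.00375), 1.46-fold, in a comparison in which 17% of 15491 genes passed, 7.82% upward and 9.21% downward. These were 1211 and 1427 genes, and 1934 and 966 when libraries were scaled by total counts only, where the median of all genes moved from -0.01 to 0.11. The call held in each fit with a library left out, between -0.60 and -0.50, but with all 4 groups in a single fit the edgeR adjusted p was 0.0654 at a log2 fold change of -0.52.

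In the ONH Lrp1 stood at 197, 183, 371 and 262 CPM at 7 days and at a lowest, median and highest of 199.9, 271 and 388 CPM at 30 days. These ranges overlapped, and the log2 change was 0.09 with a 95% interval from -0.37 to 0.55 (edgeR adjusted p = 0.875). The difference between the regional changes was -0.63 (SE 0.24), which did not pass (edgeR adjusted p = 0.275), in a contrast that 0.543% of 16748 genes passed. Without library 5 of the ONH at 7 days, the one at 371 CPM, the difference was -0.87 and passed (edgeR adjusted p = 0.0406).

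At 30 days all 7 ONH libraries were above all 7 ONP libraries for Lrp1, as for 16.4% of all genes tested in either direction. The fit gave a log2 difference of 1.23 (SE 0.13, edgeR adjusted p = 4.37e-06), 2.35-fold, and it was the smallest adjusted p of the 10 genes in any comparison. Leaving out a library gave values from 1.11 to 1.28. At 7 days all 4 ONH libraries were above the ONP libraries too, where 21.7% of genes did not overlap in either direction. The log2 difference of 0.62 (SE 0.22) missed the threshold (edgeR adjusted p = 0.0881). It passed with all 4 groups in a single fit (0.60) and with scaling by total counts only (0.74).

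Vldlr (ENSMUSG00000024924, chr19:27216484-27254231, plus strand) encodes the very low density lipoprotein receptor, which binds APOE and also the secreted protein reelin. At 7 days it was counted at 57.6, 59.0, 50.4 and 75.6 CPM in the ONH and at 124, 119, 126 and 144 CPM in the ONP. The groups did not overlap, as for 21.7% of genes tested there, and the log2 difference was -1.06 (SE 0.17, edgeR adjusted p = 0.00248). At 30 days the lowest, median and highest values were 57.0, 68.8 and 74.8 CPM in the ONH and 59.1, 90.7 and 117 CPM in the ONP. The ranges overlapped, and the log2 difference of -0.49 (SE 0.15, edgeR adjusted p = 0.0132) stayed past the threshold in every fit with a library left out. Within the ONP all 7 libraries at 30 days lay below all 4 at 7 days, as for 12% of genes tested, but the log2 change of -0.50 (SE 0.17) missed the threshold (edgeR adjusted p = 0.0598). It passed without replicate 5 of the ONP at 30 days (-0.54, edgeR adjusted p = 0.0388). In the ONH the change was 0.09 (SE 0.15, edgeR adjusted p = 0.812), and the difference between the regional changes was -0.59 (SE 0.23, edgeR adjusted p = 0.266).

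Nr1h2 (ENSMUSG00000060601, chr7:44549616-44553951, minus strand) encodes liver X receptor beta, the sterol sensor of the set. Its levels varied less in the ONP than in the ONH, with a coefficient of variation of 5.03% at 7 days and 8.50% at 30 days against 31.9% and 16.9%. This was not particular to Nr1h2. Lrp1 also varied less in the ONP, at 7.08% and 12.3% against 33.8% and 21.8%. Most other members did so at 7 days, whereas Abca1 varied more there (22.1% against 9.63%). At 30 days the lowest, median and highest values were 59.6, 72.6 and 88.3 CPM in the ONH and 80.7, 90.1 and 104 CPM in the ONP. The ranges overlapped. The log2 difference was -0.29 (SE 0.11, edgeR adjusted p = 0.0444), and the call was lost in 9 of the 14 fits with a library left out (replicates 1, 2, 6 and 7 of the ONH and 2, 4, 5, 6 and 7 of the ONP). At 7 days the difference was 0.03 (SE 0.23, edgeR adjusted p = 0.941).

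**Figure D3:**
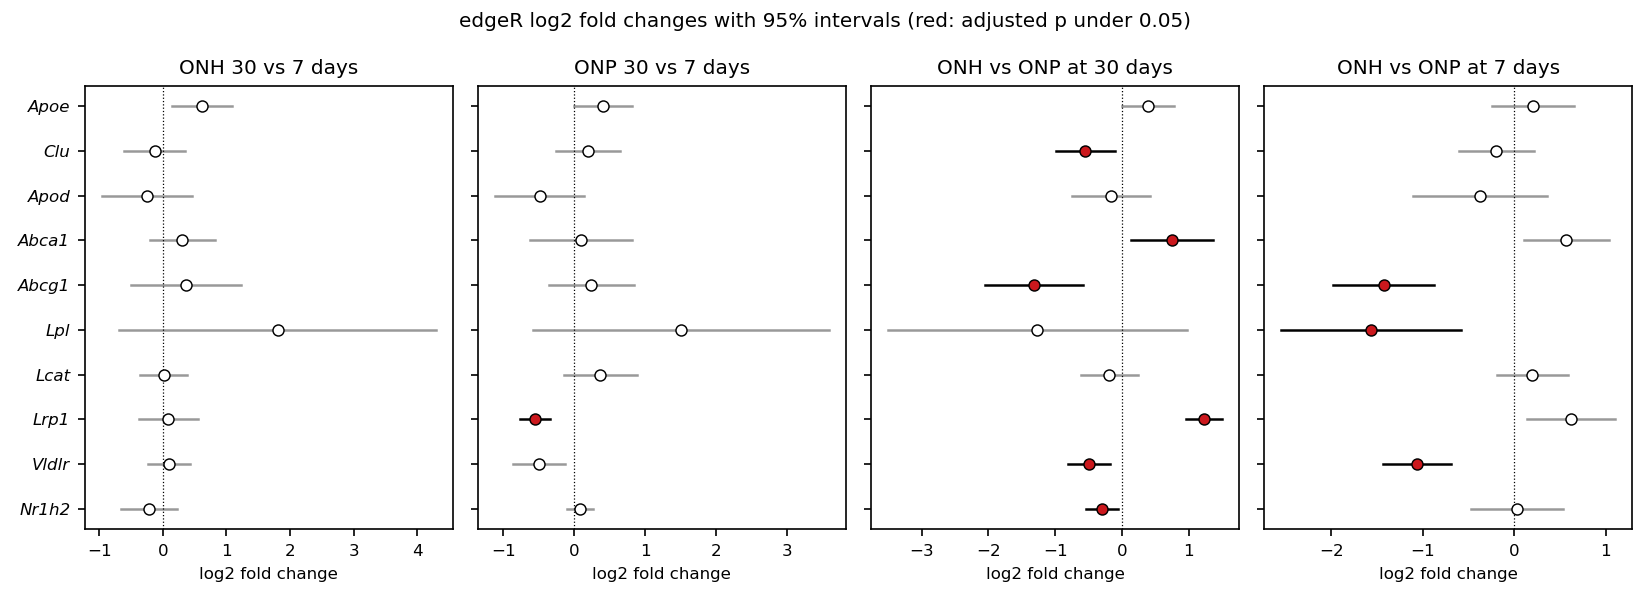
Log2 fold changes of the 10 genes in the 4 comparisons (x axis), with 95% intervals as lines and red points for an edgeR adjusted p under 0.05. No point is red for 30 against 7 days in the ONH, only Lrp1 at -0.55 is red for the ONP, and Abcg1 and Vldlr are red at both days between the regions.

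For 30 against 7 days in the ONH 0 of the 10 genes passed, and 0 of the 15668 genes tested did (0%). At an unadjusted p under 0.05 there were 2179 genes (13.9%), of which Apoe was the only member. DESeq2, run without the filter on low counts, called 446 of 26803 genes (1.66%) and no member among them. In the ONP 1 of 10 passed, and in the contrast between the regions 0 of 10 did. In that contrast 2103 of 16748 genes (12.6%) had an unadjusted edgeR p under 0.05, Lrp1 and Vldlr among them. DESeq2 called 409 of 29296 genes there (1.4%) without a member. The DESeq2 shares are over more genes than the edgeR shares and cannot be set directly against them.

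The order of the group means separated few neighbours. Lrp1 ran from the ONH at 30 days through the ONH and the ONP at 7 days to the ONP at 30 days, and its ranges did not overlap between the ONH and the ONP at 7 days or between the days of the ONP. Vldlr was highest in the ONP at 7 days, apart from the ONP at 30 days, and Lpl at 7 days was apart between the regions. For the other 7 genes every pair of neighbours in the order overlapped, but groups that are not neighbours could still be apart. Between the regions at 7 days 5 of the 10 genes did not overlap, Abca1 and Abcg1 among them, beside 21.7% of all genes tested. Between the days of the ONP 12% of all genes tested did not overlap. For neighbours in the order no share over all genes was computed, so the neighbours that were apart are a description only.

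The other genes of the pathway were read from 6 lists with 60 genes, of which 59 were in the table and 49 or 50 could be tested in each comparison. The secreted apolipoproteins of plasma (Apoa1, Apoa2, Apoa4, Apoc3, Apom) and Gpihbp1 were among those too low to test. In the ONH 0 of 50 passed for 30 against 7 days, with a median log2 change of 0.01 beside -0.02 over all genes. In the ONP 1 of 50 rose and 10 fell, where 7.82% of all genes rose and 9.21% fell, with a median of -0.19 beside -0.01 over all genes. Between the regions, 7 of 49 were higher and 15 lower in the ONH at 30 days (median -0.22 beside -0.01), where 21.8% of all genes were higher and 20% lower. At 7 days 2 of 50 were higher and 10 lower (median -0.29 beside 0.07), where 6.34% of all genes were higher and 6.81% lower.

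Among the other receptors, Sorl1, a sorting receptor, fell by 0.98 in the ONP and was the 1 listed gene of 50 whose change differed between the regions in the edgeR fit (-1.21, edgeR adjusted p = 0.0388), where 0.543% of all genes passed. No listed gene passed this contrast with scaling by total counts only, without a filter, without replicate 7 in both regions, or in 18 of the 22 fits with a library left out, which were all but those without replicate 7 of the ONH, replicate 2 or 5 of the ONP or library 5 of the ONH at 7 days. DESeq2 called Sorl1 (DESeq2 adjusted p = 0.00569) and Npc1 (DESeq2 adjusted p = 0.0371). Sort1, another sorting receptor, was lower in the ONH at 7 days (-1.01). Of the remaining receptor genes, Lrpap1, the chaperone of LRP1 and its relatives, was higher in the ONH at 30 days by 0.48 (edgeR adjusted p = 0.000842). Lrp2 was higher in the ONH at 7 days by 2.89 on the log2 scale and the scavenger receptor Cd36 by 4.52. In that comparison all 4 pigment cell and all 4 photoreceptor markers were higher in the ONH too. So were 1 of 6 endothelial, 1 of 5 mural, 1 of 5 fibroblast and 3 of 5 neuron markers, with 1 neuron marker lower. The part of these cells in the levels of Lrp2 and Cd36 was not tested. Lrp8, another receptor for APOE and reelin, passed no test.

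Of the liver X and retinoid X receptors and their targets, 4 of 8 passed between the regions at 30 days, near the 41.8% of all genes. Arl4c was higher in the ONH (1.89, edgeR adjusted p = 3.27e-05), and Rxrg, a partner receptor, was lower (-0.95, edgeR adjusted p = 0.000387) and rose in the ONP over time (0.72, edgeR adjusted p = 0.0418). Nr1h3, which encodes liver X receptor alpha, Rxra and Srebf1 passed in no comparison. Among the transporters, Abca2, an endolysosomal transporter abundant in oligodendrocytes, was lower in the ONH at 7 days (-1.93) and fell in the ONP over time (-1.13), and Abca5 was higher in the ONH at 30 days (1.30).

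Of 13 genes of intracellular cholesterol handling, 5 passed at 30 days and 3 at 7 days between the regions, and 3 passed in the ONP over time, beside 41.8%, 13.2% and 17% of all genes. Npc1, which exports cholesterol from lysosomes, was lower in the ONH at 7 days (-1.39) and fell by 0.76 in the ONP, and Gramd1a, a sterol carrier of the endoplasmic reticulum, fell by 0.56 there. Stard3, a sterol transfer protein of late endosomes, was lower in the ONH at 7 days (-1.05) and 30 days (-0.81), as was the cholesterol hydroxylase gene Cyp46a1, best known from neurons, at 30 days (-1.41). Of the lipase partners, Lmf1 and Lmf2, maturation factors of lipases, fell in the ONP by 0.59 and 0.39, and Lmf2 was lower in the ONH at 30 days (-0.69). Pltp, a phospholipid transfer protein, fell by 0.60 in the ONP (edgeR adjusted p = 0.0124). Markers of oligodendrocytes, endothelial and mural cells fell in the ONP over time, and those of oligodendrocytes and their precursors were lower in the ONH, as counted above, and their part in these changes was not tested.

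**Figure D4:**
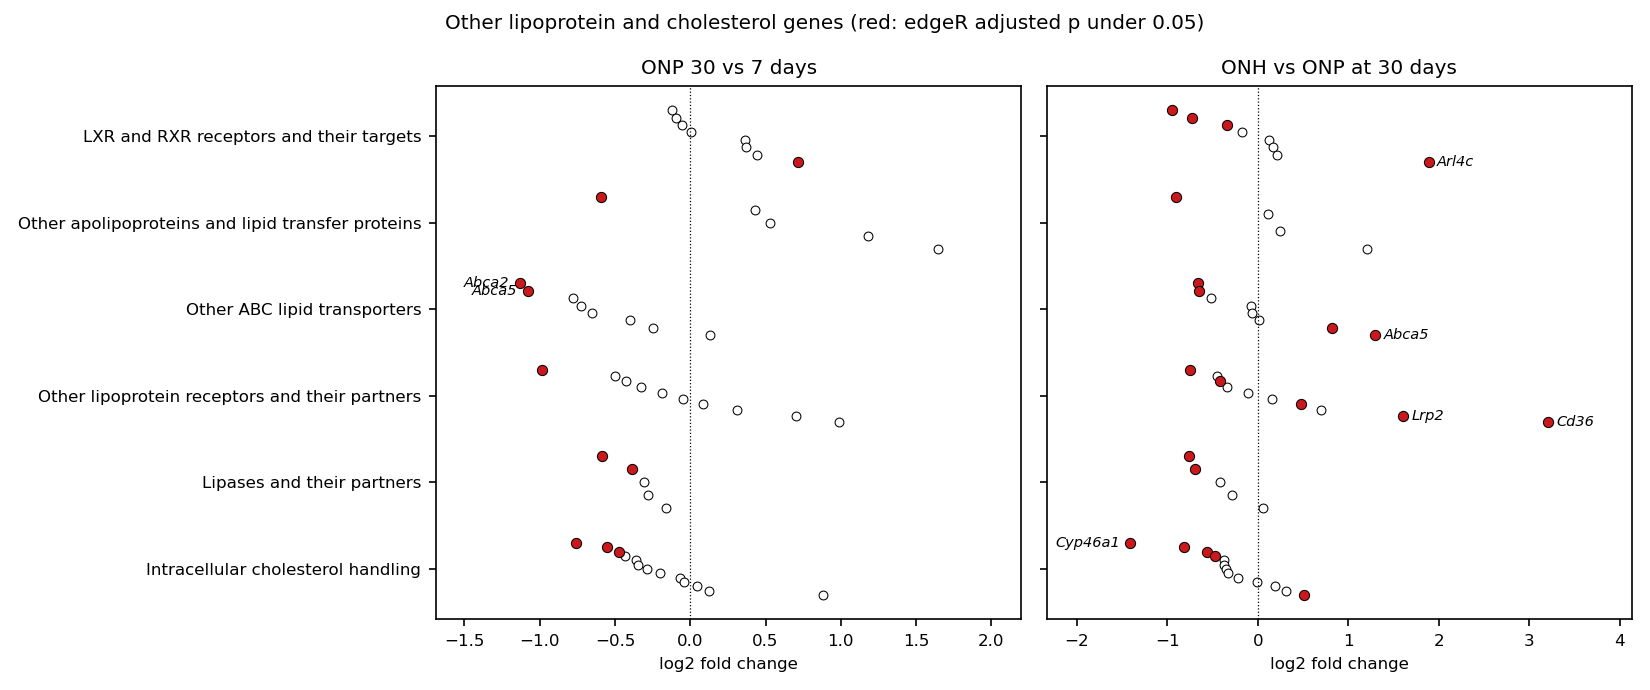
Log2 fold changes (x axis) of the other lipoprotein and cholesterol genes by list, for 30 against 7 days in the ONP and for ONH against ONP at 30 days. Each point is a gene, red where the edgeR adjusted p is under 0.05, with symbols at a change of at least 1 in either direction. Abca2 lies farthest to the left in the ONP over time, at -1.13, and Cyp46a1 between the regions, at -1.41, among the genes drawn, which leave out 1 listed gene.

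The genes whose pattern over the 22 libraries was most like that of each member were sought among 9664 genes, by the root mean square difference of log2 CPM after each gene was centred on its mean. For Lpl they were Cd68, a lysosomal protein of macrophages (0.88 on the log2 scale), and Plek (0.94), at a spread of Lpl itself of 1.74. For Abcg1 they were Evi2a (0.28) and Ttyh2 (0.30), at a spread of 0.92. For Lrp1 they were Ndrg1 (0.23) and the cathepsin gene Ctsl (0.24), at a spread of 0.58, and for Abca1 they were Dpp7 (0.30) and Capg (0.36), at a spread of 0.58. Clu lay closest to Plpp3 (0.16) and Nlgn3 (0.16), Apoe to Slc6a8 (0.25) and Clba1 (0.26), and Vldlr to Ywhaq (0.16) and Tkt (0.17). Apod lay closest to Got1 and Pcolce2, Lcat to Prdx6 and Suox, and Nr1h2 to Ddx56 and Cops4. These are descriptions over libraries that share region, day and mice.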

How the data were processed

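RNA of HA-tagged ribosomes was sequenced after poly(A) selection with a low-input kit that does not mark strand, so overlapping antisense reads cannot be told apart. The authors aligned the reads to mm10 with STAR 2.6.1d, quantified them with Salmon 0.14.2 and deposited whole-number expected counts for each gene that were not normalized. Their log2 table made with DESeq2 1.34.0 was not used. The groups were compared with edgeR 4.0.16 under R 4.3.3 (filterByExpr by group, TMM, quasi-likelihood test, Benjamini-Hochberg adjustment, threshold 0.05), on the pair of groups compared or, for the contrast between regions, on all 4 groups. CPM values were scaled by TMM over the 22 libraries, which held 16292489 to 33307092 counts. Alternatives were DESeq2 1.42.0, scaling by total counts only, other size factors, no filter, at least 10 counts in every library, all 4 groups in a single fit, the replicate as a block and each library left out. The tests were first run on simulated data with known changes, which checked only the direction of the genes called. How many changes were recovered is not given here.

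Groups came from the sample labels. Columns at 30 days match titled replicates 1 to 7. At 7 days column numbers do not match the titles, so those libraries carry their region and day only. Per the methods, ONH and ONP came from the same mice, but no source used here ties equal numbers to the same pool, so the regions were compared as separate samples. The members, lists and named-gene rule were chosen with earlier results of these data known. The rule names all members, in each comparison up to 8 called genes of the lists with the smallest p, and 2 similar genes a member with a mean log2 CPM of at least 3. The values of 1 listed gene, which enters the counts, are not reported here. Genes of activated microglia and adipocytes and the promoter patterns were chosen later. Gene positions and lengths are those of GENCODE M21 and promoters those of RefSeq, both on GRCm38.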

Additional observations from a re-analysis of the deposited data

Results flagged for a closer look

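Of 40 sets of values (10 genes in 4 groups), 6 had a highest library set apart from the rest of its group by more than Dixon's 95% limit. The 10 genes were read in the same libraries, so the sets are not independent and their number says nothing about chance. Abca1 in the ONH was close to the limit on the gap as a part of the range, at 0.5683 against 0.568 at 30 days and 0.836 against 0.829 at 7 days. In 5 of the 6 that library was replicate 7 at 30 days. It held 108 CPM of Lpl in the ONH and 217 CPM in the ONP, 70.2 CPM of Abca1 in the ONH and 57.1 CPM in the ONP, and 61758 CPM of Apoe in the ONH. The remaining case was Abca1 in library 6 of the ONH at 7 days, at 38.8 CPM against 31.8 to 33.0 CPM in the other 3 libraries.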

How the results depend on the processing

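Over the settings other than leaving out a library, 300 of 320 values of single genes kept their direction and their side of the threshold. For 30 against 7 days in the ONH, the genes called were 446 with DESeq2, 2 without a filter and 292 with all 4 groups in a single fit, and the listed pathway genes called were 1 with DESeq2 and 1 with the single fit. In that comparison Lpl was -0.44 with DESeq2, by its replacement of a count, and Lcat -0.020 with scaling by total counts only. In the ONP the single fit called 0 members, 1189 genes and 5 listed genes. At 7 days DESeq2 called 3210 genes and 20 listed genes, and the single fit 3785 genes. For the contrast between the regions, DESeq2 called 409 genes and 2 listed genes, the fit without a filter 50 and 0, scaling by total counts 0 listed genes, and the fit without replicate 7 in both regions, added after the data were seen, 58 and 0. There Abcg1 was 0.035 with scaling by total counts and 0.12 without replicate 7, and Lpl was 0.60 without replicate 7. Of the regional calls at 30 days, Clu (-0.58) and Abca1 (0.72) were lost without a filter, Nr1h2 (-0.29) in the single fit, and Clu (-0.55) and Nr1h2 (-0.28) without replicate 7 in both regions. Lpl at 7 days (-1.45) was lost with scaling by total counts. The cause was not tested where none is given. Scaling by total counts only also moved the calls of that contrast from 25 upward and 66 downward to 37 and 32.

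Equal numbers at 30 days were not taken as pairs, since no source used here ties them to the same pool. Deviations from the group means correlated at 0.08 to 0.47 between same-numbered libraries over 16748 genes. They correlated best with the own number in 3 of 7. These values do not settle whether equal numbers mark the same mice. With the replicate number as a block 6717 genes passed in place of 6322, Apoe (0.38) and Lpl (-1.80) were gained and Nr1h2 (-0.31) was lost, and no other call of a member changed.

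Leaving out each library in turn gave 0 members called for the ONH over time, 1 to 3 for the ONP, 3 to 6 and 2 to 3 between the regions at 30 and 7 days, and 0 to 1 for the contrast between the regions. The genes called were 0 to 167, 1439 to 3214, 5671 to 6416, 1102 to 2379 and 22 to 318, and the listed genes 0, 8 to 15, 18 to 23, 8 to 15 and 0 to 2. The 167 and the 318 came without library 5 of the ONH at 7 days, the 3 members in the ONP without its replicate 5 at 30 days, and the 3 at 30 days without replicate 2 or 6 of the ONP. Values that changed sign ran, in the ONH over time, from -0.48 to 0.072 for Apod, -0.47 to 2.12 for Lpl, -0.057 to 0.14 for Lcat and -0.042 to 0.33 for Lrp1. They ran from -0.23 to 0.24 for Abca1 in the ONP over time, -3.58 to 0.093 for Lpl at 30 days, -0.19 to 0.19 for Nr1h2 at 7 days, and, for the contrast between the regions, -0.39 to 0.24 for Abcg1 and -1.65 to 1.98 for Lpl.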

Other observations

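Other single genes of the lipoprotein pathway, picked after their values had been seen, were also high in replicate 7 at 30 days. Of these, Apoc4, Apoc2, Apoc1 and Ch25h belong to the list of activated microglia genes summed above. Their levels are part of that sum and are not a separate observation. Trem2 is a microglial gene too, and its level is not taken as separate from the microglial sums. Apoc4, Apoc2 and Apoc1, small exchangeable apolipoproteins encoded next to Apoe, stood at 79.8, 10.6 and 11.5 CPM in the ONH, 38.2, 65.1 and 11.9 times the median of the other 6 replicates. In the ONP they were at 27.5, 5.39 and 4.36 CPM, 31.8, 19.1 and 7.67 times that median. Ch25h, whose enzyme makes an oxysterol that liver X receptors bind, was at 22.4 CPM in the ONH and 27.6 CPM in the ONP, against at most 2.24 and 7.45 CPM in the other replicates. Trem2, a microglial receptor that binds lipids and APOE, was at 325 CPM in the ONH and 246 CPM in the ONP, against at most 82.0 and 120 CPM.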
